A study of Arabidopsis thaliana with 27 samples.

Results

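The 51 genes described here are nuclear Arabidopsis genes whose proteins are imported into the chloroplast and work in the light reactions or in carbon fixation. They were chosen by name and function. The deposited count table held rows for 32833 genes, and all 51 were among them. The set comprised 4 antenna genes of photosystem I (LHCA), 9 genes of the major antenna of photosystem II (LHCB1 to LHCB3), 6 genes of the minor antenna (LHCB4 to LHCB7), 5 genes for the Rubisco small subunit and Rubisco activase, 10 genes for photosystem I subunits, 9 for photosystem II subunits, 5 for electron carriers and the ATP synthase, and 3 for the plastid glyceraldehyde-3-phosphate dehydrogenase. The questions were how far these genes changed in each organ when seedlings met an N-acylethanolamine, and how much cotyledon-type RNA the root libraries held.

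Transcripts were measured by RNA sequencing in 3-day-old seedlings, labelled Col-O, which were grown in liquid medium under light and treated in groups of 50. NAE 18:3 roots, NAE 18:2 roots, DMSO roots, NAE 18:3 cotyledons, NAE 18:2 cotyledons, DMSO cotyledons, NAE 18:3 seedlings, NAE 18:2 seedlings and DMSO seedlings had 3 libraries each, 27 in all. NAE 18:3, the ethanolamide of linolenic acid, was given at 70 µM per the sample labels, while the series text has 80 µM. NAE 18:2, the ethanolamide of linoleic acid, was given at 40 µM, and controls received 0.2% DMSO, the solvent. Treatment lasted 1 h per the sample labels, while the methods text has 1 to 3 h. NAE 18:3 and NAE 18:2 therefore differed in dose as well as in acyl chain, and agent and dose cannot be told apart. The methods call the libraries of a group biological replicates without saying whether they came from separate cultures or dishes, and the p-values below measure the spread between these libraries.

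Photosynthesis starts when antenna proteins, which hold chlorophyll, pass light energy to the reaction centers of the photosystems. Photosystem II draws electrons from water and photosystem I passes them on to ferredoxin. The chloroplast keeps the genes of many core subunits in its own genome, while the antenna, the small subunit of Rubisco and most peripheral subunits are encoded in the nucleus. Transcripts of these nuclear genes are abundant in green tissue and low in roots, which makes them a sensitive reading of green tissue in a root sample.

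Promoters of 4 members are shown because these genes lay at or near the ends of the range described below. LHCB1.3 was the antenna gene with most counts in cotyledons, RBCS2B was among the genes with the lowest root level relative to cotyledons, LHCA4 had the highest level of all members in DMSO roots, and LHCB7 had the highest root level relative to cotyledons. Each sequence is the 250 bases before the annotated start of the gene, 5′ to 3′ on the strand of the gene, from RefSeq on TAIR10.1. It comes from chr1:10477635-10477884 (plus strand) for LHCB1.3, chr5:15382072-15382321 (minus strand) for RBCS2B, chr3:17495034-17495283 (minus strand) for LHCA4 and chr1:28728748-28728997 (plus strand) for LHCB7. Capitals mark the G-box CACGTG, the I-box GATAAG and the CCAAT box CCAAT, each also searched as its reverse complement.
LHCB1.3: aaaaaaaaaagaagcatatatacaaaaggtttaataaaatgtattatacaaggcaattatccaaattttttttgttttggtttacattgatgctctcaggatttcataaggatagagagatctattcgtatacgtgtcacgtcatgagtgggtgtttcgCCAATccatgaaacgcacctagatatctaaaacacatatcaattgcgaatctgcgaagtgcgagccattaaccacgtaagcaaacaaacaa
RBCS2B: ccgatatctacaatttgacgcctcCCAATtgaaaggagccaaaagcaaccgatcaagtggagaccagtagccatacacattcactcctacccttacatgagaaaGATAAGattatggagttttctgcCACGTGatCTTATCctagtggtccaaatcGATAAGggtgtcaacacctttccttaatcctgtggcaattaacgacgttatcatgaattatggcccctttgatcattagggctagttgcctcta
LHCA4: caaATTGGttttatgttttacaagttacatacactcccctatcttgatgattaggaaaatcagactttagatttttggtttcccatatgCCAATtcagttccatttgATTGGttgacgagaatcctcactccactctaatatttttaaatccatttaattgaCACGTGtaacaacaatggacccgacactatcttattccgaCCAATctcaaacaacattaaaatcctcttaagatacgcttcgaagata
LHCB7: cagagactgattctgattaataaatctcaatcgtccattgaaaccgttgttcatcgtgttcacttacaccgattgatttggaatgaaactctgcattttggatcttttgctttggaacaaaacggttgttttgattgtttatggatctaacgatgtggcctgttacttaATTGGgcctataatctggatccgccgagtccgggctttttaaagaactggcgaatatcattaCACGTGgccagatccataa

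RBCS2B carried 1 G-box, 3 I-boxes and 1 CCAAT box in this window, LHCA4 carried 1 G-box and 4 CCAAT boxes, LHCB7 carried 1 of each of these 2 kinds, and LHCB1.3 carried 1 CCAAT box only. RBCS3B, which had the lowest root level relative to cotyledons and is not shown, carried the CCAAT box but neither the G-box nor the I-box. Over the 51 members the G-box was found in 10 promoters, which is 19.6%, against 6.5% of the 27443 promoters of this length in the genome. The I-box was found in 13 promoters (25.5%), against 12.3% of all promoters. The CCAAT box was found in 34 (66.7%), against 46.0% of all promoters, and the TATA box TATAAA, not marked above, in 20 (39.2%), against 47.3%. A match describes the letters in the window and says nothing of a bound factor.

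The libraries held 17781269 to 38635934 counts, and the median library 26436942. All 51 members had a row, 50 had counts, and LHCB1.5 (AT2G34420, chr2:14522524-14523568) was at 0 in all 27 libraries. The exons of LHCB1.5 lie wholly under exons annotated on the opposite strand (AT2G08665). Of 375 protein-coding genes with over 99% of their exon length under opposite-strand exons, 357 were at 0 in every library, which is 95.2%, against 1904 of 20771 genes without such overlap, which is 9.17%. LHCB1.5 therefore gives no measurement of its transcript here. PSAG has 61.4% of its exon length under an opposite-strand gene, and 21 members have a paralog at least 80% identical in transcript sequence, among them RBCS2B and RBCS3B at 94.4% identity, so reads could be divided between such copies. Replicates 1 and 3 of NAE 18:2 seedlings were far closer to each other than any other replicate pair, with a chi-square per degree of freedom of 1.91 over genes, against 10.3 for the next closest pair. Replicate 3 of NAE 18:3 roots stood apart from the other 8 root libraries in these genes, as described below, and results that rest on it are given with and without it.

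In DMSO cotyledons the members took 15.9%, 15.1% and 12.8% of all counts, and 41 of them were among the 100 genes with most counts. RBCS1A (AT1G67090), a small subunit gene of Rubisco, was the gene with most counts of all, at 23150, 22892 and 17729 CPM (counts scaled to library size with TMM factors) in the 3 DMSO cotyledon libraries. LHCB1.3 (AT1G29930) was next at 21732, 20286 and 18725 CPM. These levels differ between the 3 libraries, with replicate 3 lowest for both genes.

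Per kilobase of annotated exon length, RBCS1A reached 16764 CPM per kb and LHCB1.3 16462 CPM per kb in DMSO cotyledons, and these levels differed by less than the spread between libraries (the CPM of RBCS1A had an SD of 3058, n = 3). Within the other classes the highest levels per kilobase in DMSO cotyledons were those of LHCA4 (3817 CPM per kb), LHCB5 of the minor antenna (3327), PSBO1 of the oxygen-evolving complex (3325), PSAF, which docks plastocyanin at photosystem I (3169), PETE2, a plastocyanin (2078), and GAPA2 of the plastid dehydrogenase (1239). LHCA1 (3620) and GAPA1 (1221) came next in their classes, closer to LHCA4 and GAPA2 than the spread between libraries. The lowest with counts were LHCB7 at 15.3 and LHCB4.3 at 36.1 CPM per kb. The light-harvesting family thus spanned 15.3 to 16462 CPM per kb in DMSO cotyledons. By class, the major antenna of photosystem II took 31.3% ± 1.203 (SD, n = 3) of the member counts, Rubisco and its activase 21.6% ± 1.14, photosystem II subunits 12.2% ± 0.0547, photosystem I subunits 9.95% ± 0.188, the photosystem I antenna 9.75% ± 0.115, the minor antenna 7.49% ± 0.104, carriers and ATP synthase 4.15% ± 0.0836 and the plastid dehydrogenase 3.60% ± 0.117.

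**Figure D1:**
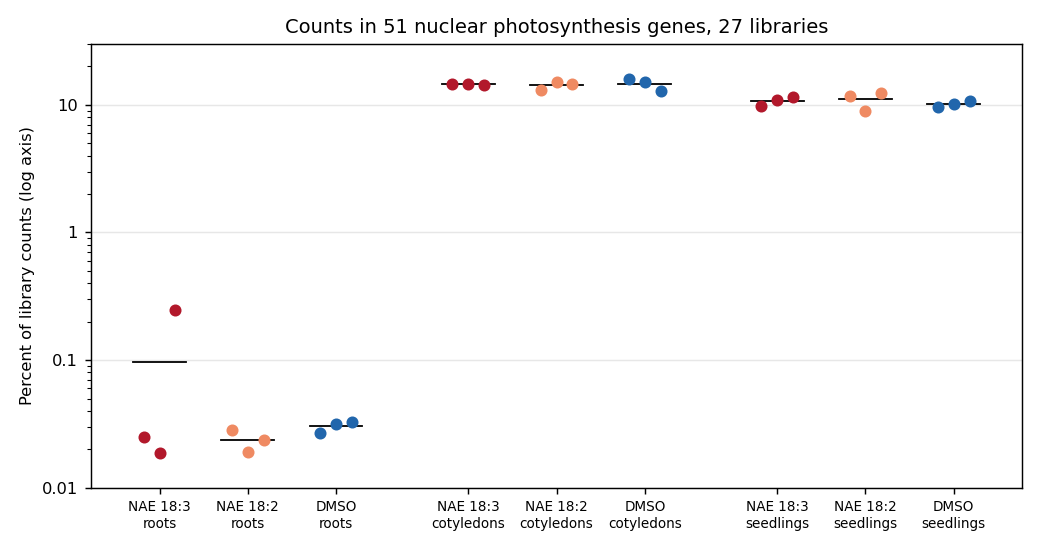
Percent of all counts in the library that fell on the 51 genes (log axis), for the 27 libraries by organ and agent, with points for libraries and bars for group means. The 9 cotyledon libraries lie between 12.8% and 15.9%, the 9 seedling libraries between 9.03% and 12.3%, and 8 root libraries between 0.0188% and 0.0329%, with NAE 18:3 roots replicate 3 at 0.245%.

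Roots held very little of these transcripts. The members took 0.0251%, 0.0188% and 0.245% of counts in NAE 18:3 roots, 0.0282%, 0.0192% and 0.0237% in NAE 18:2 roots and 0.0271%, 0.0315% and 0.0329% in DMSO roots. Every root library lay far below every cotyledon library. All 27 libraries were fitted together and 21643 genes tested (edgeR, quasi-likelihood, p-values adjusted by Benjamini and Hochberg). Genes were called by a stricter rule, which asked for a log2 fold change over 1 in size besides an adjusted p under 0.01. All 50 tested members were lower in roots than in cotyledons for each agent, where 25.5% of all tested genes were called lower with NAE 18:3, 22.5% with NAE 18:2 and 22.4% with DMSO. Their median log2 fold change, roots over cotyledons, was -7.72 with NAE 18:3, -9.89 with NAE 18:2 and -9.51 with DMSO, while the median of all tested genes was 0.09, 0.05 and 0.01. Without NAE 18:3 roots replicate 3 all 50 were again called lower for each agent, and the NAE 18:3 median was -10.25.

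The classes did not fall to the same degree. In DMSO roots against DMSO cotyledons the median log2 fold change was -11.44 for Rubisco and its activase, -11.17 for the major antenna, -10.25 for the plastid dehydrogenase, -9.31 for carriers and ATP synthase, -9.12 for photosystem II subunits, -9.001 for photosystem I subunits, -8.997 for the photosystem I antenna and -8.63 for the minor antenna. RBCS3B, a small subunit gene, had 0.951, 1.36 and 1.67 CPM in DMSO roots against 6232, 5900 and 4224 CPM in DMSO cotyledons. Its log2 fold change was -12.00 ± 1.18 (SE, edgeR adjusted p = 1.1e-08), and its root level was 0.0243% of that in cotyledons, the lowest of the members.

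At the other end, LHCB7 (AT1G76570, chr1:28728998-28730851), a light-harvesting protein of low abundance, had 2.45, 2.45 and 2.93 CPM in DMSO roots against 16.3, 18.7 and 20.9 CPM in DMSO cotyledons. Its root level was 14.0% of that in cotyledons, a log2 fold change of -2.83 ± 0.20 (SE, edgeR adjusted p = 4.1e-11). LHCB4.3 (AT2G40100, chr2:16745628-16747424), a form of the CP29 antenna protein, had 2.53, 1.60 and 1.48 CPM in DMSO roots against 52.6, 54.6 and 49.5 CPM in DMSO cotyledons, or 3.58% (log2 fold change -4.78 ± 0.35, edgeR adjusted p = 9.2e-11). These 2 genes, the lowest per kilobase in DMSO cotyledons among those with counts, were the only members over 1%, and the median over the 50 was 0.136% with quartiles of 0.0612% and 0.242%. LHCA4, which binds chlorophyll at photosystem I, was the member with most CPM in DMSO roots, at 25.7, 26.8 and 21.6 CPM against 5518, 5104 and 4208 CPM in DMSO cotyledons.

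**Figure D2:**
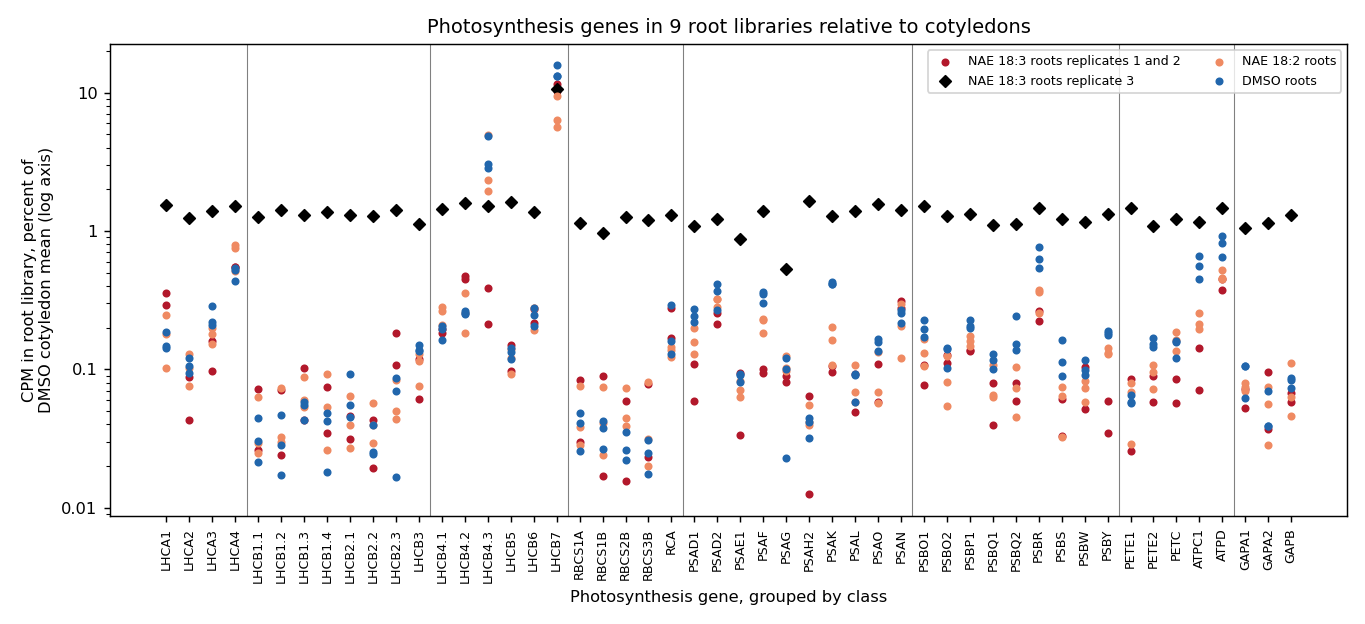
CPM of the 50 genes with counts in each of the 9 root libraries, as a percent of the mean CPM in DMSO cotyledons (log axis), grouped by class. Black diamonds are NAE 18:3 roots replicate 3, whose median was 1.3004%, and the other points are the other 8 root libraries, whose medians ran from 0.0585% to 0.141%; LHCB7 and LHCB4.3 lie above 1% in DMSO roots.

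The make-up of these transcripts also differed between organs. In DMSO roots the photosystem I antenna took 20.7%, 18.8% and 17.2% of member counts, against 9.87%, 9.64% and 9.73% in DMSO cotyledons. The major antenna took 10.6%, 11.8% and 13.5% in DMSO roots, against 30.7%, 30.5% and 32.6% in DMSO cotyledons. The 2 organs did not overlap in either class. The correlation of the member profile with the mean profile of DMSO cotyledons was 0.82, 0.66 and 0.98 in NAE 18:3 roots, 0.81, 0.68 and 0.69 in NAE 18:2 roots and 0.53, 0.60 and 0.70 in DMSO roots (Pearson's r of log2 CPM across the 48 genes over 100 CPM in DMSO cotyledons, a description, since genes of a library share its depth).

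NAE 18:3 roots replicate 3 held far more of these transcripts than the other root libraries. Of the 50 members with counts, 48 had their highest value among the 9 root libraries there, the exceptions being LHCB7, highest in DMSO roots replicate 3, and LHCB4.3, highest in NAE 18:2 roots replicate 3. LHCB1.3 had 20.7, 8.76 and 264 CPM in the 3 libraries of NAE 18:3 roots, against 8.64, 11.1 and 11.7 CPM in DMSO roots. RBCS1A had 17.8, 6.35 and 241 CPM in NAE 18:3 roots, against 5.47, 8.64 and 10.2 CPM in DMSO roots. In both genes replicate 1 lay above every DMSO library, replicate 2 within the DMSO range and replicate 3 far above the other libraries.

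The surplus was a similar share of the cotyledon level across genes. Over 48 members with more than 100 CPM in NAE 18:3 cotyledons, the excess of replicate 3 over the mean of replicates 1 and 2 was 1.15% of the NAE 18:3 cotyledon level at the median, with quartiles of 1.05% and 1.27% and a range from 0.482% (lowest) to 1.64% (highest). Of 14 shoot markers, which were genes of the YABBY family, genes of the stomatal lineage and of guard cells, and AT1G22690, 1, 3 and 9 had more than 3 counts in the 3 libraries of NAE 18:3 roots, against 3 in each library of NAE 18:2 roots and of DMSO roots. The excess summed over the shoot markers was 1.01% of their level in NAE 18:3 cotyledons, and over the YABBY genes alone 0.856%. The shoot markers summed to 0.783, 0.951 and 4.103 CPM in NAE 18:3 roots and 1.95, 3.06 and 2.28 CPM in NAE 18:2 roots, against 4.18, 2.48 and 3.04 CPM in DMSO roots, so by this sum replicate 3 was above the other NAE 18:3 roots but not above every DMSO root library. In DMSO roots KAT1, a potassium channel gene of guard cells, made up 2.79, 0.845 and 1.18 CPM of the sum, against 0.0745, 0.306 and 0.148 CPM in NAE 18:3 roots. The YABBY genes summed to 0.112, 0.0679 and 1.68 CPM in NAE 18:3 roots, against 0.139 CPM or less in the other 6 root libraries. Root markers did not set this library apart from its group, with 76.7, 80.8 and 77.2 CPM over 15 genes in NAE 18:3 roots, 190 to 295 CPM in NAE 18:2 roots and 291 to 598 CPM in DMSO roots. These measures describe the library, and the source of the surplus was not tested.

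In cotyledons 36 to 41 of the 50 members lay within the range of the DMSO libraries in each library of NAE 18:3, a count not made over all genes. Only PSAD2 and LHCB1.4 passed an adjusted p under 0.05, the looser of the 2 rules used here, both with higher counts, and no member passed the stricter rule. Among all 19444 genes tested, 15.4% were called higher and 14.2% lower at the looser rule, 29.6% together, and 6.33% were called higher and 8.82% in either direction at the stricter rule. The members lay at a median log2 fold change of 0.01, with 27 above 0 and 23 below, and all genes at -0.02. PSAD2 (AT1G03130, chr1:753307-754262), a stromal subunit of photosystem I near the ferredoxin site, had 575.9, 612.7 and 599.8 CPM in NAE 18:3 cotyledons, against 513.1, 483.1 and 482.9 CPM in DMSO cotyledons. The groups did not overlap, and the log2 fold change was 0.27 ± 0.08 (SE, edgeR adjusted p = 0.034).

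LHCB1.4 (AT2G34430, chr2:14524607-14525918), a gene of the major antenna next to LHCB1.5 on the chromosome, had 4297, 4795 and 4359 CPM in NAE 18:3 cotyledons, against 3481, 3405 and 3111 CPM in DMSO cotyledons (log2 fold change 0.42 ± 0.14, SE, edgeR adjusted p = 0.045). Both calls were lost with upper quartile factors (adjusted p = 0.059 for PSAD2 and 0.067 for LHCB1.4), and LHCB1.4 was lost when any of the 6 libraries was left out, PSAD2 when any but DMSO cotyledons replicate 3 was. Among members on the lower side the smallest adjusted p was that of LHCB7, with 13.6, 15.6 and 14.0 CPM in NAE 18:3 cotyledons against 16.3, 18.7 and 20.9 CPM in DMSO cotyledons (log2 fold change -0.37 ± 0.17, SE, edgeR adjusted p = 0.13), followed by PSAN (-0.19, 0.35) and PSAE1 (-0.12, 0.43). GAPA1 was next on the higher side, at a log2 fold change of 0.18 and an adjusted p of 0.33.

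With NAE 18:2 edgeR's test called 0 members in cotyledons by either rule, and DESeq2 also called 0 of 50. Among all genes 3.75% were called higher and 3.46% lower at the looser rule, 7.22% together, and 0.617% higher and 0.725% in either direction at the stricter rule. At an unadjusted p under 0.05 there were 2 members, PSAK and LHCB2.2. PSAK, a membrane subunit of photosystem I at its antenna side, had 1319, 1637 and 1487 CPM in NAE 18:2 cotyledons, against 1962, 1835 and 1638 CPM in DMSO cotyledons (log2 fold change -0.27 ± 0.11, SE, edgeR adjusted p = 0.15). LHCB2.2, of the major antenna, had 1796, 2720 and 2506 CPM in NAE 18:2 cotyledons, against 3062, 2884 and 2959 CPM in DMSO cotyledons (-0.32 ± 0.13, adjusted p = 0.17).

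The next on the lower side was Rubisco activase, RCA (-0.30, adjusted p = 0.20), and the smallest adjusted p on the higher side was that of RBCS1B (0.22, adjusted p = 0.47), then RBCS2B (0.18, 0.57) and LHCB1.4 (0.06, 0.81). In all, 46 of 50 members had a log2 fold change below 0, with a median of -0.10 against -0.01 for all genes. By library, 39 members were below every DMSO cotyledon library in NAE 18:2 replicate 1, 3 in replicate 2 and 12 in replicate 3, a count not made over all genes. Replicate 1 also had the lowest share of member counts in its group, 13.0%, and the highest TMM factor of the 9 cotyledon libraries, 0.957.

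**Figure D3:**
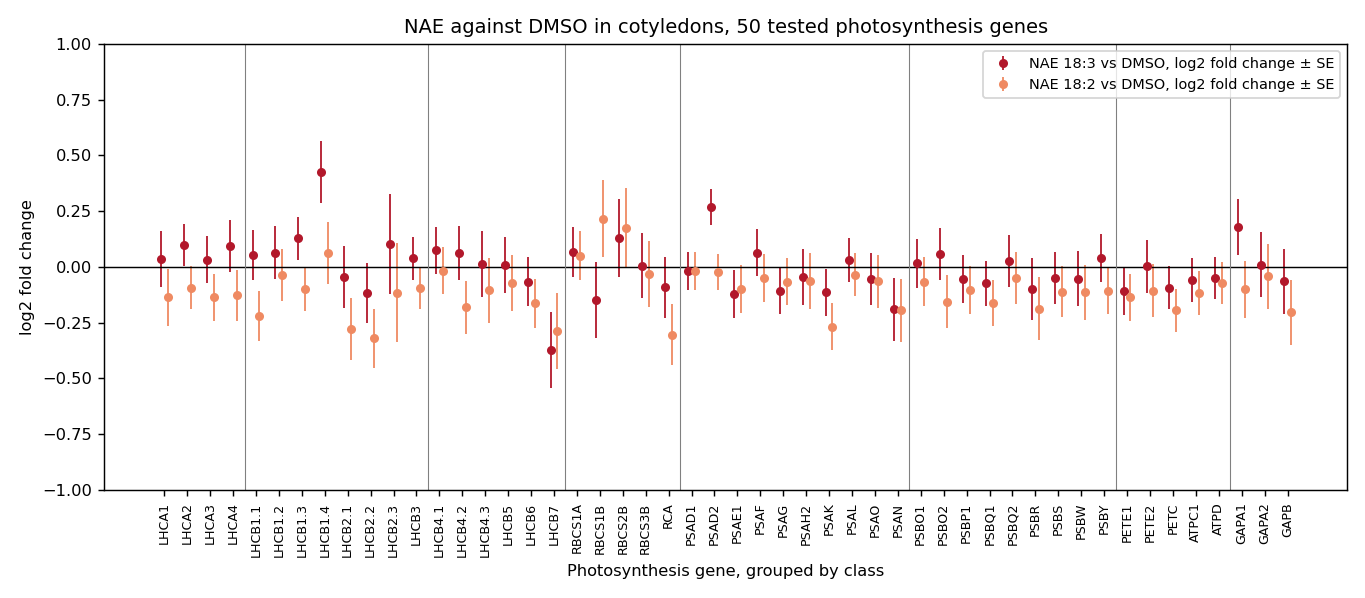
Log2 fold change in cotyledons of NAE 18:3 and of NAE 18:2 against the same 3 DMSO libraries, with bars of 1 SE, for the 50 genes with counts, grouped by class. The largest is LHCB1.4 with NAE 18:3 at 0.42 and the lowest is LHCB7 with NAE 18:3 at -0.37; no value reaches 1 in size.

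Set against each other in cotyledons, NAE 18:3 and NAE 18:2 differed in 1 member at an adjusted p under 0.05, with 4 at an unadjusted p under 0.05, against 12.2% of all genes called higher and 9.01% called lower. No member passed the stricter rule, against 3.91% of all genes higher and 4.33% in either direction. PSAD2 had 575.9, 612.7 and 599.8 CPM with NAE 18:3, against 438.3, 486.1 and 507.9 CPM with NAE 18:2 (log2 fold change 0.29 ± 0.08, SE, edgeR adjusted p = 0.033), and the call was lost with upper quartile factors (0.074) and without any of the 6 libraries but NAE 18:2 cotyledons replicate 3. LHCB1.4 followed at 0.36 ± 0.14 (95% interval 0.09 to 0.63, adjusted p = 0.094) and LHCB1.1 at 0.28 ± 0.11 (0.06 to 0.49, 0.11). RBCS1B had the smallest adjusted p on the lower side, at -0.37 (interval -0.70 to -0.03, adjusted p = 0.16). Of the 50 members 45 were above 0 and 5 below. Both agents were compared with the same DMSO libraries, so their values against DMSO are not independent.

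In the root comparisons 49 members passed the filter on low counts, PETE1 being the other gene with counts. With all 9 root libraries in the fit, NAE 18:3 gave 12 members higher and 1 lower at an adjusted p under 0.05, against 27.3% of all 20138 genes higher and 30.6% lower, 57.9% together. At the stricter rule 1 member, LHCB4.3, was lower, against 16.8% of all genes, and 0 were higher, against 5.94%. LHCB4.3 had 0.112, 0.204 and 0.791 CPM in NAE 18:3 roots, against 2.53, 1.60 and 1.48 CPM in DMSO roots. All 3 NAE 18:3 libraries were below all 3 DMSO libraries, and the log2 fold change was -2.61 ± 0.64 (SE, edgeR adjusted p = 0.0072). The values of 0.112 and 0.204 CPM rest on few counts, near the floor of the measurement. Leaving out any of the other 5 libraries of these groups ended the strict call (adjusted p from 0.015 to 0.029), and without NAE 18:3 roots replicate 3 the value was -3.70 ± 0.60 (adjusted p = 0.0017).

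The 12 members called higher with NAE 18:3 in roots were LHCB1.1, LHCB1.2, LHCB1.3, LHCB1.4, LHCB2.2 and LHCB2.3 of the major antenna, RBCS1A, RBCS2B and RBCS3B of Rubisco, GAPA2, LHCA1 and LHCB4.2, with log2 fold changes from 1.498 (LHCB4.2) to 3.95 (RBCS3B). This count was 0 without DMSO roots replicate 1 or 2, 2 without DMSO roots replicate 3, 22 without NAE 18:3 roots replicate 1 and 29 without replicate 2. No share of all genes is set beside these counts, which describe how far the calls rest on single libraries. Without NAE 18:3 roots replicate 3, LHCA1 and LHCB4.2 were the members still called higher, against 24.3% of all 20399 genes. LHCA1, of the photosystem I antenna, had 16.4, 13.4 and 71.0 CPM in NAE 18:3 roots, against 6.83, 6.55 and 8.51 CPM in DMSO roots. Its log2 fold change was 2.00 ± 0.61 (SE, edgeR adjusted p = 0.020) with that library and 0.85 ± 0.31 (0.047) without it. LHCB4.2, a CP29 gene, had 8.46, 7.95 and 28.2 CPM in NAE 18:3 roots, against 4.44, 4.56 and 4.71 CPM in DMSO roots, which gave 1.498 ± 0.47 (adjusted p = 0.023) with and 0.67 ± 0.24 (0.046) without it.

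With replicate 3 left out, some members were called lower in NAE 18:3 roots. That library was set apart by its high counts of these same members, so leaving it out by itself lowers their level in this group. At the stricter rule 11 members were lower, against 15% of all genes, and 17 at the looser rule, against 27.7%. The median of the 49 was -0.54 against -0.0044 for all genes, with 14 above 0 and 35 below. PSAF had 3.84 and 3.57 CPM in NAE 18:3 roots replicates 1 and 2, and 52.9 CPM in replicate 3, against 13.3, 13.9 and 11.5 CPM in DMSO roots (log2 fold change -1.98 ± 0.16 from replicates 1 and 2, SE, edgeR adjusted p = 0.00013). PSAK had 1.90, 1.73 and 23.2 CPM in NAE 18:3 roots, against 7.75, 7.52 and 7.52 CPM in DMSO roots (-2.24 ± 0.26 without replicate 3, adjusted p = 0.00047).

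The gamma subunit of the chloroplast ATP synthase, ATPC1, had 1.64, 0.815 and 13.3 CPM in NAE 18:3 roots, against 7.58, 6.34 and 5.13 CPM in DMSO roots (log2 fold change -2.55 ± 0.33 without replicate 3, SE, edgeR adjusted p = 0.00070). Of photosystem II, PSBY, a small membrane subunit, had 0.820, 0.475 and 18.3 CPM in NAE 18:3 roots, against 2.45, 2.63 and 2.55 CPM in DMSO roots (-2.15 ± 0.29, adjusted p = 0.00082), and PSBR had 4.92, 5.84 and 32.6 CPM, against 11.9, 13.8 and 17.1 CPM (-1.58 ± 0.23, adjusted p = 0.00098). In these 5 genes replicates 1 and 2 were below all DMSO libraries and replicate 3 was above them. The other strict calls without that library were LHCB4.3, PSAD1 (-1.72), PSBO1 (-1.29), PETE2 (-1.26), ATPD (-1.12) and LHCA3 (-1.08). By class, 7 of 9 photosystem II subunits, 4 of 4 tested carriers and ATP synthase subunits and 3 of 10 photosystem I subunits were lower at the looser rule in this fit, 1 of 8 tested genes of the major antenna and 0 of 5 genes for the Rubisco small subunit and activase, and the difference between classes was not tested. With replicate 3 in the fit, 0 members of these 3 classes of subunits and carriers were called in either direction.

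With NAE 18:2, LHCB7 fell in roots. LHCB7 had 1.77, 1.17 and 1.05 CPM in NAE 18:2 roots, against 2.45, 2.45 and 2.93 CPM in DMSO roots, with no overlap (log2 fold change -1.02 ± 0.24, SE, edgeR adjusted p = 0.012). It was the only member called with all 9 root libraries in the fit, against 15.8% of all genes lower and 18.1% higher. At the stricter rule no member passed, against 3.03% of all genes lower and 8.7% in either direction. Without NAE 18:2 roots replicate 3 its adjusted p was 0.053. After LHCB7 the smallest adjusted p on the lower side belonged to ATPD (-0.79, 0.20) and PSAK (-1.47, 0.22), and on the higher side to LHCA4 (0.40, 0.43), RBCS2B (0.86, 0.66) and RBCS3B (0.81, 0.66).

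The 3 root groups share 1 estimate of spread, so NAE 18:3 roots replicate 3 also bore on the test of NAE 18:2 against DMSO. For PSAK the SE of that comparison was 0.88 with the library and 0.22 without it. The library was set apart by its high counts of these same members. Leaving it out therefore by itself lowers the spread estimated for members such as PSAK, and the calls that follow depend on that choice. Without NAE 18:3 roots replicate 3, 10 members were lower with NAE 18:2 at the looser rule, against 14.5% of all genes, and 3 at the stricter rule, against 2.74%. PSAK had 3.69, 1.93 and 2.93 CPM in NAE 18:2 roots, against 7.75, 7.52 and 7.52 CPM in DMSO roots (log2 fold change -1.47 ± 0.22, SE, edgeR adjusted p = 0.0028). ATPC1 had 2.23, 2.42 and 2.93 CPM, against 7.58, 6.34 and 5.13 CPM (-1.38 ± 0.27, adjusted p = 0.0079). PSBR had 8.31, 5.68 and 8.06 CPM, against 11.9, 13.8 and 17.1 CPM (-1.01 ± 0.19, adjusted p = 0.0071). In all 3 genes every NAE 18:2 library was below every DMSO library. The other members called were PSAF (-0.72), ATPD (-0.79), LHCB7 (-1.02), PSBQ2 (-1.32), PETE2 (-0.82), PSBP1 (-0.44) and PSBO1 (-0.63), and 0 members were higher.

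**Figure D4:**
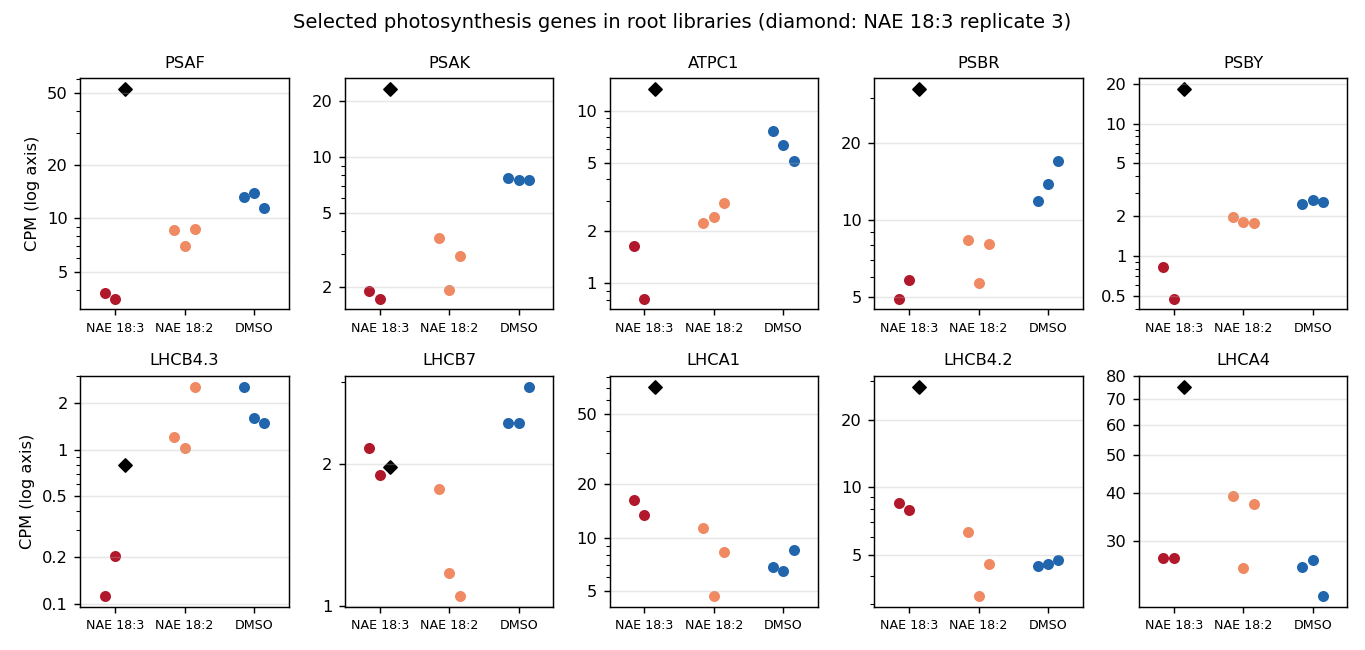
CPM (log axes, scaled separately) of 10 genes in the 3 libraries of NAE 18:3, NAE 18:2 and DMSO roots, with a diamond for NAE 18:3 roots replicate 3. In PSAF, PSAK, ATPC1, PSBR and PSBY the other NAE-treated libraries lie below all DMSO libraries and the diamond above them. In LHCB4.3 and LHCB7 the diamond lies below all DMSO libraries, while in LHCB4.3 NAE 18:2 replicate 3 lies above them.

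Root markers moved in the same comparisons. Of 15 root markers 9 were lower and 1 higher with NAE 18:3 in roots at the looser rule, with 76.7 to 80.8 CPM summed in NAE 18:3 roots, against 291 to 598 CPM in DMSO roots. With NAE 18:2 they summed to 190 to 295 CPM and 7 were lower and 0 higher. The shares of all genes called at this rule are given above for both comparisons. Of the 3 shoot markers tested in roots, 2 were lower with NAE 18:3. The part of these changes in the member calls was not tested, and in tissue as a whole fewer cells of a type and less RNA per cell cannot be told apart.

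The comparison of NAE 18:3 with NAE 18:2 in roots gave 5 members higher and 1 lower at the looser rule with all libraries, against 22.6% and 30% of all genes. The count of higher members was 0 without NAE 18:2 roots replicate 2 or 3, 26 without NAE 18:3 roots replicate 1 and 35 without replicate 2, again without a share of all genes beside it. When NAE 18:3 roots replicate 3 was left out there were 1 higher, LHCB4.2 (0.68 ± 0.24, edgeR adjusted p = 0.049), and 8 lower, against 18.4% and 25.5% of all genes. Leaving that library out by itself lowers the members' level in NAE 18:3 roots, as said above. At the stricter rule 3 were lower without that library, PSAF (-1.26 ± 0.16, adjusted p = 0.0013), LHCB4.3 (-3.41 ± 0.60, 0.0040) and PSBY (-1.64 ± 0.29, 0.0042). PSAF in NAE 18:2 roots had 8.66, 6.999 and 8.79 CPM, between the other groups. LHCB4.3 had 1.22, 1.02 and 2.57 CPM in NAE 18:2 roots, which overlapped the DMSO roots.

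Whether an agent acted differently on a member in roots and in cotyledons was tested as the difference of the 2 log2 fold changes in a fit of all 27 libraries. With NAE 18:3, 5 members had a higher and 1 a lower change in roots at the stricter rule, against 5.56% and 9.86% of all 21643 genes, and 20 and 1 at the looser rule, against 23.6% and 16.2%. The counts without NAE 18:3 roots replicate 3 were 0 and 9 at the stricter rule and 2 and 17 at the looser rule, against 8.99% of all genes lower at the stricter rule and 21.9% higher and 14.8% lower at the looser rule. Here too the library was set apart by its high counts of the members. Leaving it out by itself lowers their level in NAE 18:3 roots and bears on their estimated spread with both agents. LHCB4.3, with a difference of -2.52 ± 0.55 (SE, edgeR adjusted p = 0.0011) with and -3.55 ± 0.57 (9.9e-05) without that library, was the only member called at the stricter rule in both fits. Without the library ATPC1 had a difference of -2.33 ± 0.30 (adjusted p = 1.2e-05), PSAF -1.87 ± 0.25 (1.7e-05), PSBY -2.02 ± 0.29 (3.6e-05) and PSAK -1.957 ± 0.32 (0.00012). In cotyledons the same 4 genes had log2 fold changes with NAE 18:3 between -0.11 and 0.06. With NAE 18:2 edgeR called 0 members different between the organs, 1 had an unadjusted p under 0.05 and DESeq2 called 0 of the 29 members to which it gave a p. Without NAE 18:3 roots replicate 3, ATPC1 was called with NAE 18:2 (-1.19 ± 0.26, adjusted p = 0.0071), against 0.928% of all genes lower, and 4 members at the looser rule, against 4.95%.

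In whole seedlings the members took 9.83%, 11.0% and 11.5% of counts with NAE 18:3, 11.8%, 9.03% and 12.3% with NAE 18:2 and 9.68%, 10.2% and 10.7% with DMSO. No member was called with either agent, none had an unadjusted p under 0.05 in edgeR's test, and DESeq2 called 0 of 50 at an adjusted p under 0.05. Among all 20911 genes 13.1% were called higher and 9.13% lower with NAE 18:3, and 1.28% higher at the stricter rule. With NAE 18:2 the shares were 5.6% and 2.49%, 8.1% together. Yet 46 of 50 members lay above 0 with NAE 18:3, at a median log2 fold change of 0.29, and 45 with NAE 18:2, at a median of 0.29, against -0.03 for all genes in each comparison.

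The libraries did not move together. In NAE 18:3 seedlings 5, 43 and 47 of 50 members were above every DMSO seedling library in replicates 1, 2 and 3, and in NAE 18:2 seedlings 46, 1 and 47 were. All genes were not counted in this way, so a shift of the whole library cannot be told from one of the members. LHCB1.3 had 12179, 20021 and 17255 CPM in NAE 18:3 seedlings and 18698, 10025 and 20263 CPM in NAE 18:2 seedlings, against 10898, 12536 and 14173 CPM in DMSO seedlings. RBCS1A had 14289, 19299 and 17371 CPM with NAE 18:3 and 19983, 12175 and 22039 CPM with NAE 18:2, against 12548, 16550 and 15387 CPM with DMSO. For both genes NAE 18:3 replicate 1 and NAE 18:2 replicate 2 lay within or below the DMSO range and the other 4 NAE libraries above it.

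With NAE 18:3 in seedlings the smallest adjusted p on the higher side belonged to LHCA3 (0.47, 0.16), PSAE1 (0.39, 0.17) and PSAL (0.38, 0.18), and on the lower side to LHCB7 (-0.32, 0.19), RBCS1B (-0.35, 0.22) and LHCB2.3 (-0.28, 0.46). With NAE 18:2 they were PSAG (0.45, 0.19), PSAD1 (0.34, 0.21) and PSAD2 (0.47, 0.22), and LHCB7 (-0.18, 0.49), RBCS1B (-0.11, 0.73) and PSBS (-0.08, 0.79). LHCB7 and RBCS1B were thus on the lower side in each. Between NAE 18:3 and NAE 18:2 there were 0 members and 0 of all genes in edgeR's test, 0 members at an unadjusted p under 0.05 and 0 by DESeq2. The median difference was 0.01, and for LHCB1.4 the interval was -0.77 to 0.46.

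Root marker sums and member sums both varied across the seedling libraries, but not in a common order. The 15 root markers summed to 36.6, 20.9 and 15.2 CPM in NAE 18:3 seedlings and 18.5, 62.2 and 16.8 CPM in NAE 18:2 seedlings, against 189, 160 and 131 CPM in DMSO seedlings. The members' CPM summed to 59.5%, 86.5% and 79.2% of the DMSO cotyledon sum with NAE 18:3 and 83.6%, 52.1% and 88.1% with NAE 18:2, against 56.6%, 60.9% and 65.8% with DMSO. NAE 18:2 replicate 2 had the lowest member sum of the seedling libraries, yet less root marker CPM than any DMSO library. Within each NAE group the library with most root marker CPM had the lowest member sum. Without NAE 18:2 seedlings replicate 2, which was that library, 8 of 50 members were higher with NAE 18:2 at an adjusted p under 0.05, against 15.2% of all genes. As the NAE 18:2 group that fit kept replicates 1 and 3, which were far closer to each other than any other replicate pair. Scaled to the total of the members themselves, an alternative chosen after seeing the data, the medians were 0.0030 with NAE 18:3 and 0.018 with NAE 18:2. This scaling fixes the members' total in every library, so it cannot show whether the members changed as a set. With the summed log2 CPM of the root markers as a covariate, 6 members were lower with NAE 18:3, against 1.32% of all genes, and 2 with NAE 18:2, against 0.488%. Root marker CPM was lower in every NAE library (at most 62.2) than in every DMSO library (at least 131). Treatment and covariate were therefore largely confounded, so this fit cannot separate an effect of the agents from that of root tissue. The part of root tissue in these values was not tested.

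**Figure D5:**
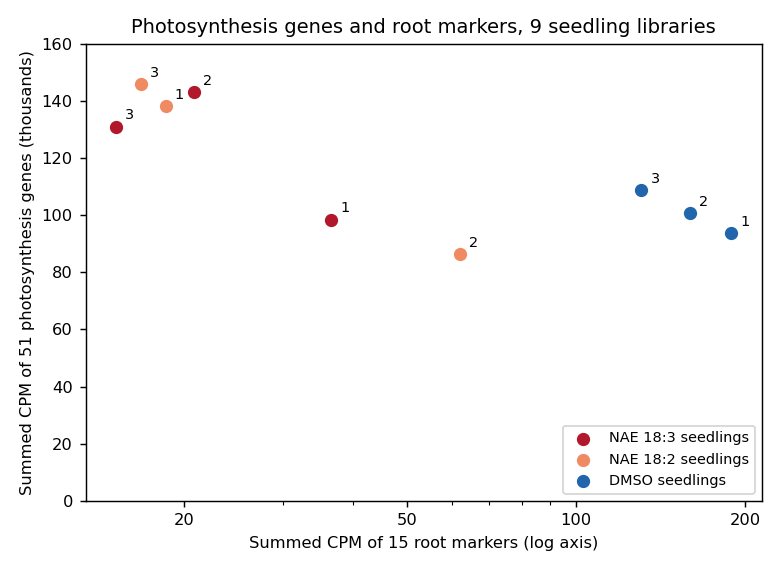
Summed CPM of the 51 genes against the summed CPM of 15 root markers (log axis) in the 9 seedling libraries, numbered by replicate. The 4 NAE libraries at 15.2 to 20.9 CPM of root markers hold 131066 to 145850 CPM of photosynthesis genes, and NAE 18:3 replicate 1 (98486), NAE 18:2 replicate 2 (86274) and the DMSO libraries (93696 to 108913) lie lower.

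A further list of 35 nuclear photosynthesis genes outside the set was set beside the members. All 34 tested were lower in DMSO roots than in DMSO cotyledons, from -1.92 for TIM, the plastid triose phosphate isomerase, to -12.14 for PRK, phosphoribulokinase. With NAE 18:3 in cotyledons 1 was lower and 0 higher at the looser rule, namely PSB28 (-0.52 ± 0.13, edgeR adjusted p = 0.015), and with NAE 18:2 none passed it, with 8 at an unadjusted p under 0.05. In roots with NAE 18:3, 4 were higher and 6 lower with all libraries, and 1 higher and 13 lower without NAE 18:3 roots replicate 3. The shares of all genes called in these fits are those given above beside the members, and the counts are not read as a result about the list. That library was set apart by its high counts of the members, which are photosynthesis genes like these. PGR5 and PGRL1B, which act in cyclic electron flow around photosystem I, were lower in both fits (PGR5 -2.25 ± 0.58, adjusted p = 0.0092, and -3.50 ± 0.24, 8.9e-05, without the library, and PGRL1B -2.76 ± 0.24, 3.9e-05, and -2.95 ± 0.26, 0.00016). RPI3, ribose phosphate isomerase, was lower in roots with NAE 18:3 (-1.28 ± 0.16, adjusted p = 0.00021) and with NAE 18:2 (-1.16 ± 0.16, 0.0011). In seedlings with NAE 18:3 the phosphatase gene TAP38, whose product acts on the antenna, was the only gene of the list called (0.68 ± 0.17, adjusted p = 0.030). Of 4 antenna-like stress proteins, OHP2 was lower in NAE 18:3 roots (-1.54 ± 0.27, adjusted p = 0.0013) and OHP1 in NAE 18:3 cotyledons (-0.38 ± 0.11, 0.032).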

How the data were processed

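Stranded poly(A) libraries were made from dissected roots, dissected cotyledons and whole seedlings, with 3 per group as labelled. Per the paper's methods the authors trimmed the reads and aligned them with STAR to TAIR10, and the submitters' notes name DESeq2. The counting program and its use of strand are not given in the sources used here. The deposited table holds whole-number counts per gene without normalization. The deposited normalized table was not used.

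Tests started from the counts in R 4.3.3 with edgeR 4.0.16 (filterByExpr, TMM factors, robust quasi-likelihood fit, two-sided, Benjamini-Hochberg adjustment over all tested genes), on the 9 libraries of an organ, or on all 27 for comparisons between organs. The strict rule asked for a log2 fold change over 1 in size besides an adjusted p under 0.01, the looser rule for an adjusted p under 0.05. DESeq2 1.42.0 was an alternative and gave an adjusted p to 29 of 50 members in fits with roots. CPM used TMM factors over all 27 libraries, and intervals are the estimate ± 1.96 SE. Paralogs were searched with BLAST+ 2.17.0+.

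Members and lists were chosen with earlier results of these data known. Members called at the strict rule are named (at most 8 per direction), otherwise the 3 with the smallest adjusted p in each direction, with the member of each class highest per kilobase in DMSO cotyledons. Replicate numbers are from the sample titles. Deviations of same-numbered libraries correlated at 0.15 to 0.42 between NAE 18:2 and DMSO cotyledons and at 0.14 to 0.17 between NAE 18:3 and NAE 18:2 cotyledons, and were taken as paired there only, and a replicate block moved no count in these. Alternatives were other scaling factors, no filter, DESeq2, other sets of libraries and each library left out. Scripts were tested on simulated data.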

Additional observations from a re-analysis of the deposited data

Results flagged for a closer look

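For 6 members the effect of NAE 18:3 differed between roots and cotyledons by over 1 on the log2 scale with an adjusted p below 0.01 in edgeR's test of the difference itself over 21643 genes. Both directions together, all genes were called by this rule at least as often as the members, by the shares given above for this comparison. The differences, roots minus cotyledons, were 4.12 for RBCS3B, 4.01 for LHCB2.2, 3.97 for LHCB1.2, 3.17 for LHCB2.3, 2.14 for LHCA1 and -2.52 for LHCB4.3 on the log2 scale. Without NAE 18:3 roots replicate 3, LHCB4.3 remained at -3.55 and LHCA1 was at 0.99 (adjusted p = 0.037), while RBCS3B (1.05), LHCB2.2 (0.18), LHCB1.2 (0.57) and LHCB2.3 (1.26) had adjusted p from 0.095 to 0.78.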

How the results depend on the processing

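Roots were lower than cotyledons for all 50 members under every alternative in which all got a p (with DESeq2, 29 of 29 that got one), and TMM factors computed without the members moved none of 56 counts. Counts of members at an adjusted p under 0.05, unless named strict, moved as follows. No share of all genes is set beside the counts in this section. They describe how far the calls depend on settings and libraries and are not a result about the members.

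NAE 18:3 against DMSO in cotyledons gave 0 higher with upper quartile factors or all 27 libraries and 1 with the members' total as library size (added after seeing the data), against 2. NAE 18:3 against NAE 18:2 there gave 0 higher with these 3 settings or with only the 6 libraries compared, against 1, and 1 lower with the members' total or the 6 libraries, against 0. NAE 18:2 against DMSO in roots gave strict lower counts of 1 with upper quartile factors, 1 with DESeq2 and 3 with the 6 libraries, against 0, and 12 lower with the 6 libraries, against 1. NAE 18:3 against DMSO in roots gave strict higher counts of 9 with DESeq2 and 23 with all 27 libraries, against 0, a strict lower count of 0 with the 6 libraries, against 1, and 3 higher without the filter, 4 with the 6 libraries and 36 with all 27, against 12. NAE 18:3 against NAE 18:2 in roots gave strict higher counts of 5 with DESeq2 and 30 with all 27 libraries, strict lower counts of 1 with each, against 0, and 13 higher with upper quartile factors, 3 without the filter, 17 with DESeq2, 2 with the 6 libraries and 40 with all 27, against 5. In seedlings the root marker covariate gave 6 lower with NAE 18:3 and 2 with NAE 18:2, against 0. For the difference between organs, upper quartile factors gave 1 lower with NAE 18:2, against 0, and the strict higher count with NAE 18:3 was 1 with RLE or upper quartile factors, 2 without the filter and 8 with DESeq2, against 5. The cause was not tested. The median root level without TMM scaling was 0.154%, 0.104% and 0.139% of DMSO cotyledons in NAE 18:2 roots, against 0.118%, 0.0748% and 0.106% with it, and 0.177%, 0.211% and 0.213% in DMSO roots, against 0.121%, 0.138% and 0.141%.

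The replicate numbers pair no root groups. With a replicate block the members higher in roots were 3 for NAE 18:3 against DMSO and 2 for NAE 18:3 against NAE 18:2, and 46 other counts did not move by over 1.5 times.

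Leaving out 1 library of the groups compared at a time, NAE 18:3 against DMSO ranged in cotyledons over 0 to 1 higher and 0 to 2 lower (2 without DMSO cotyledons replicate 3), and in roots over 0 to 29 higher, 1 to 17 lower, 0 to 13 strict higher and 0 to 11 strict lower. NAE 18:3 against NAE 18:2 ranged over 0 to 1 higher in cotyledons, and in roots over 0 to 35 higher, 0 to 8 lower, 0 to 2 strict higher and 0 to 3 strict lower. NAE 18:2 against DMSO ranged over 0 to 1 lower in roots and 0 to 8 higher in seedlings. Without NAE 18:3 roots replicate 3, which is in neither group but shares the estimate of spread, that root comparison had 10 lower and 3 strict lower. The difference between organs ranged with NAE 18:3 over 2 to 38 higher, 1 to 17 lower, 0 to 27 strict higher and 1 to 9 strict lower, and with NAE 18:2 over 0 to 1 lower, against 4 lower and 1 strict lower without NAE 18:3 roots replicate 3. Leaving out NAE 18:3 roots replicate 3 turned the sign for LHCB2.2 in NAE 18:3 roots (range -0.12 to 4.32) and for the difference between organs of GAPB (-0.31 to 3.12), PSAH2 (-0.0299 to 4.44), PETE1 (-0.0527 to 3.68), LHCB2.1 (-0.69 to 3.45), LHCB5 (-0.11 to 2.73) and PSAL (-0.23 to 3.17).

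Upper quartile factors moved the median of all genes by 0.29 for DMSO roots against DMSO cotyledons, and the members' total by -0.26 and -0.21 in seedlings. Root levels rest on few counts, down to 2 in a library.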
